A study of Mus musculus with 2 samples.

Results

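The constant genes of the T cell receptor were measured in single lung cells of the mouse: Trac for the α chain, Trbc1 and Trbc2 for the β chain, Trdc for the δ chain, and Trgc1, Trgc2 and Trgc4 for the γ chain. These are 7 of the 33696 genes in the deposited matrices, chosen by name. Their UMIs, the molecules counted by unique molecular identifiers, were taken in Cd3-positive cells and in NK and innate lymphoid cells. Cells with at least 2 UMIs over Cd3d, Cd3e and Cd3g were called Cd3-positive. These genes encode the CD3 chains that carry both kinds of receptor to the cell surface. All of the 7 genes had UMIs in the Cd3-positive cells of both libraries.

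The study sorted live cells from dissociated lungs of adult C57BL6/J mice and sequenced them as 3′ single-cell libraries, to ask what loss of the transcription factor GFI1 does to immune cells of a barrier tissue. Here 1 library is labelled GFI1 KO, from a mouse with a germline deletion that removes GFI1 from every cell of the body, and 1 library is labelled WT. With 1 library per group there is no test of genotype. Genotype, mouse and library cannot be told apart, and every interval below is a 95% interval that covers counting error only. UMIs of 1 cell share that cell, so these intervals are too narrow as a measure of the difference between cells.

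A T cell carries either an αβ or a γδ receptor. The δ genes lie inside the α locus, so joining an α chain removes the δ genes of that chromosome, while the β and γ loci are separate and can be transcribed in cells of either lineage. Mouse γ variable segments are joined to particular constant genes, Trgv4 and Trgv6 to Trgc1, Trgv2 to Trgc2 and Trgv1 to Trgc4. In the lung, γδ T cells are known as an early source of interleukin-17 and interferon-γ at the barrier surface. A 3′ UMI shows that RNA of a constant gene was present, not that a complete receptor chain was made.

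Near-identical copies limit what these counts can separate. Exon 1 of Trbc1 and of Trbc2 shared 374 of 375 bases in the GENCODE annotation of GRCm38, 99.7%, and the stretch around the single differing base is shown in coding orientation, with that base in capitals. Trbc1 was taken from chr6:41538432-41538521 and Trbc2 from chr6:41546944-41547033, both on the plus strand.
Trbc1: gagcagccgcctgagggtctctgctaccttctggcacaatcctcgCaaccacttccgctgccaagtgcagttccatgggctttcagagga
Trbc2: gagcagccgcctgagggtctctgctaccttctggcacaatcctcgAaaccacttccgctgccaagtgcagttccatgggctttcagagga
The reads of a 3′ library fall near the end of the transcript, and there the copies part. Of the 60-base windows in the last 400 bases of each transcript, 0% of those of Trbc1 occurred in Trbc2 and 9.09% of those of Trbc2 occurred in Trbc1.

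The γ constant genes show the same problem in a graded form. The first 90 bases of exon 1 are given for Trgc1 (chr13:19214103-19214192, plus strand), Trgc2 (chr13:19307462-19307551, minus strand) and Trgc4 (chr13:19344558-19344647, plus strand), in GRCm38 and in coding orientation. Capitals mark bases that differ from Trgc1, 1 base in Trgc2 and 12 bases in Trgc4.
Trgc1: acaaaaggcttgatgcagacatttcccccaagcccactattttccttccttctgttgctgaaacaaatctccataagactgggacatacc
Trgc2: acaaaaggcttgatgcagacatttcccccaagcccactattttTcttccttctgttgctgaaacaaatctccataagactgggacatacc
Trgc4: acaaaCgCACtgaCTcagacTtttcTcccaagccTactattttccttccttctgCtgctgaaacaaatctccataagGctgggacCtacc
Over the whole exon, Trgc1 was 97.3% identical to Trgc2 and 82.1% identical to Trgc4. In the last 400 bases, 15.2% of the 60-base windows of Trgc1 occurred in Trgc2 and 0% occurred in Trgc4, and no window of Trac occurred in Trdc. UMIs of Trgc1 and Trgc2 are therefore the pair that the counting could split between copies, and values that separate them are uncertain to that extent.

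After filtering, the KO-labelled library kept 10495 cells and the WT-labelled library 19342 cells, with 116825535 and 162599284 gene UMIs. Cd3-positive cells were 845 (8.05%) and 2898 (15%) of them, at median depths of 6811 and 6461 UMIs. The libraries shared 74 barcodes, of which 1 was a Cd3-positive cell in both. Scrublet, a doublet caller, marked 9.47% of Cd3-positive cells under the KO label and 11.7% under the WT label. The targeted gene itself gave 96 and 153 UMIs in Cd3-positive cells. With ribosomal, mitochondrial and Gm- genes left out of the total, that is 2.20 times more per UMI under the GFI1 KO label. Which part of Gfi1 is deleted is not given in the sources used here, and a 3′ tag outside it would check nothing, so the groups are named by their labels throughout. Cd3-positive cells with at least 2 UMIs of macrophage and monocyte markers were 32.9% under the KO label and 16.6% under the WT label. For epithelial markers these shares were 3.91% and 24.5%, and for endothelial markers 28.3% and 42.9%. Values without cells of these kinds are given, where they differ, for co-detection and for the constant genes over all Cd3-positive cells. They are not given for the coreceptor classes, the gene lists or the variable segments, so the part of such cells there is not known.

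The αβ genes stood at nearly the same level in Cd3-positive cells of both libraries. Levels are given in CPM, the UMIs of a gene scaled to a fixed total of UMIs in the same cells, with ribosomal, mitochondrial and Gm- genes left out, as in the study. A 3′ tag count does not grow with transcript length, and levels were compared between libraries within each gene. Trac gave 1906 UMIs under the KO label and 5998 under the WT label, or 391 and 350 CPM, a ratio of 1.12 (1.06 to 1.18). Trbc1 was at 707 and 665 CPM, for a ratio of 1.06 (1.02 to 1.10). Trbc2 was at 1333 and 1174 CPM, a ratio of 1.14 (1.10 to 1.17). The small excess under the KO label depended on the scale, since per Cd3 UMI all of these 3 genes were lower under the KO label, with log2 ratios of -0.22 for Trac, -0.29 for Trbc1 and -0.19 for Trbc2. Shares of cells differed little as well. A Trac UMI was seen in 74.4% of Cd3-positive cells under either label, with a difference of 0.01 percentage points (-3.46 to 3.34).

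Within Cd3-positive cells the γδ genes stood apart between the libraries. Trdc, Trgc1 and Trgc2 were at least 2-fold higher in Cd3-positive cells under the KO label, and Trgc4 was 1.81-fold higher. Trdc gave 1170 UMIs under the KO label and 671 under the WT label, which is 240 (226 to 254) and 39.2 (36.3 to 42.2) CPM, a ratio of 6.12 (5.56 to 6.74). Trgc1 gave 568 and 246 UMIs, at 116 (107 to 126) and 14.4 (12.6 to 16.3) CPM, a ratio of 8.11 (6.97 to 9.46). This was the widest separation of the 7 genes. Trgc2 gave 130 and 223 UMIs, 26.6 and 13.0 CPM, a ratio of 2.05 (1.64 to 2.55). Trgc4 gave 133 and 258 UMIs, 27.3 and 15.1 CPM, a ratio of 1.81 (1.46 to 2.24).

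Against the rest of the transcriptome, 3 of the 7 genes were at least 2-fold higher under the KO label and 0 were at least 2-fold lower. Of 12526 genes with at least 30 UMIs over both libraries, 2.83% were at least 2-fold higher under the KO label and 8.92% at least 2-fold lower. The median log2 ratio was 0.86 over the constant genes and -0.05 over all genes. UMIs were concentrated in few cells. The 10 cells richest in Trdc held 28.9% of its UMIs under the KO label and 24.9% under the WT label, and for Trgc2 under the KO label the 10 richest cells held 48.5%. Leaving out cells with at least 2 marker UMIs of another lineage kept 402 and 1107 Cd3-positive cells. Endothelial markers reached 2 UMIs in 31.8% and 45.1% of B cells too, against 6.32% and 9.20% of NK cells. The step may therefore also leave out T cells that hold no RNA of another cell. The log2 ratio of Trdc then moved from 2.61 to 1.69 (1.45 to 1.93) and that of Trgc1 from 3.02 to 2.30 (1.95 to 2.66). Those of Trgc2 and Trgc4 fell within counting error of 0, at 0.03 (-0.63 to 0.65) and 0.35 (-0.14 to 0.82).

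**Figure D1:**
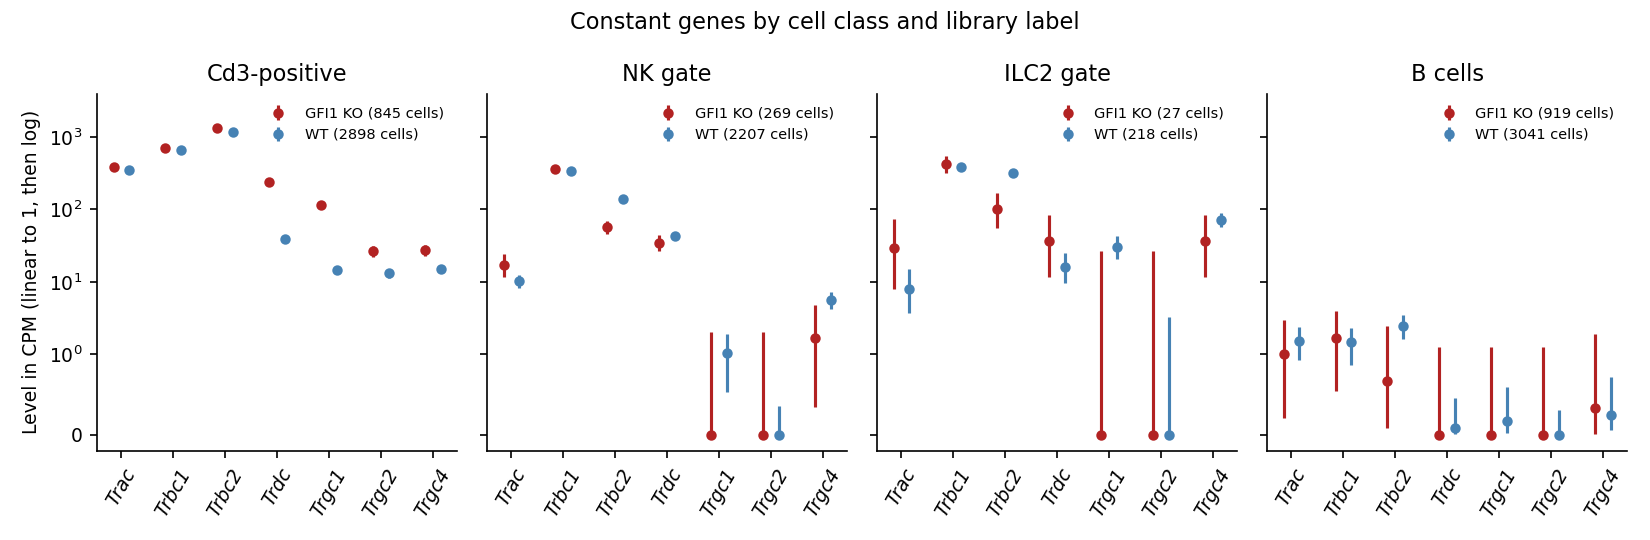
Level in CPM of each constant gene (vertical axis, linear to 1 and logarithmic above) in Cd3-positive cells, the NK gate, the ILC2 gate and B cells, for the libraries labelled GFI1 KO and WT, with exact Poisson intervals as bars. Trdc in Cd3-positive cells sits at 240 under the KO label and 39.2 under the WT label, while Trac sits at 391 and 350.

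Cells that should lack these genes gave the level of free RNA. B cells, and the other lineages here, were defined by marker genes, no Cd3 UMI and a place outside the NK and innate lymphoid gates. Cells that took up Cd3 RNA are thus left out, so these counts may understate free T cell RNA. In B cells a Trdc UMI occurred in 0 of 919 cells under the KO label and in 1 of 3041 cells under the WT label. Trac was found in 0.33% and 0.62% of B cells, and any Trbc in 0.76% and 1.41%. Macrophages and monocytes, at larger depths, held Trdc in 0.17% and 0.07% of cells. No B cell, macrophage or endothelial cell of either library held Trac and Trdc together. For B cells, counts of 0 in 919 and 3041 cells allow shares of up to 0.33% and 0.10% (3 cells of the total). The shares in Cd3-positive, NK and innate lymphoid cells described below for Trdc and Trbc were well above these levels.

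Most Cd3-positive cells held αβ RNA alone, and a sizeable minority held RNA of both receptor kinds. A cell counted as αβ with at least 1 UMI of Trac, Trbc1 or Trbc2 and as γδ with at least 1 UMI of Trdc, Trgc1, Trgc2 or Trgc4. Cells with αβ UMIs alone were 651 of 845 (77.0%) under the KO label and 2573 of 2898 (88.8%) under the WT label. Cells with both were 178 (21.1%; 18.4% to 24.0%) and 286 (9.87%; 8.81% to 11%), a difference of 11.2 percentage points (8.26 to 14.3). Cells with γδ UMIs alone were rare, 10 (1.18%) and 9 (0.31%). Cells with neither were 6 and 30. When every cell was thinned to 1500 UMIs, which left out 8 and 10 shallower cells, the shares with both were 12.9% and 5.37%, a difference of 7.54 points (5.17 to 10.1). B cells held Trac and Trdc together in 0 of 919 and 0 of 3041 cells. Each gene alone was rare in B cells, and doublets of T cells fall outside that gate. These counts therefore give no background for the pair in a Cd3-positive cell that already holds either gene.

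The narrower pair of Trac and Trdc, the genes that compete for the same locus, was seen less often. Both were detected in 34 of 845 cells (4.02%; 2.80% to 5.58%) under the KO label and in 69 of 2898 cells (2.38%; 1.86% to 3.0%) in the WT-labelled library, which differ by 1.64 percentage points (0.27 to 3.28). After thinning to 1500 UMIs these shares were 1.55% and 0.42%, from 13 and 12 cells. After thinning to 3000 UMIs they were 2.18% and 1.18%, and the gap of 1.0 points (-0.08 to 2.45) did not exceed counting error. At least 2 UMIs of each gene were found in 8 and 11 cells, a difference of 0.57 points (-0.05 to 1.5) that did not exceed counting error. Without cells with at least 2 marker UMIs of another lineage the difference was 1.38 points (-0.24 to 3.57), again within counting error. All of these shares are of Cd3-positive cells, of which more held Trdc under the KO label, 13.0% against 5.90%. Of Trdc-positive cells alone, Trac was seen in 30.9% (22.4% to 40.4%) under the KO label. Under the WT label it was seen in 40.4% (32.9% to 48.1%) of them, with overlapping intervals. UMIs of all 4 chains occurred in 21 cells of either library, 2.49% and 0.72% of Cd3-positive cells. Among cells with 10 or more Trac UMIs, 16 under the KO label and 39 under the WT label, 0 held a Trdc UMI, which allows shares of up to 18.8% and 7.69%. Among cells with 5 to 9 Trac UMIs, 4 of 90 and 7 of 291 held Trdc, with 23 and 12 Trdc UMIs in all. The plot of Trac against Trdc UMIs shows single cells.

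**Figure D2:**
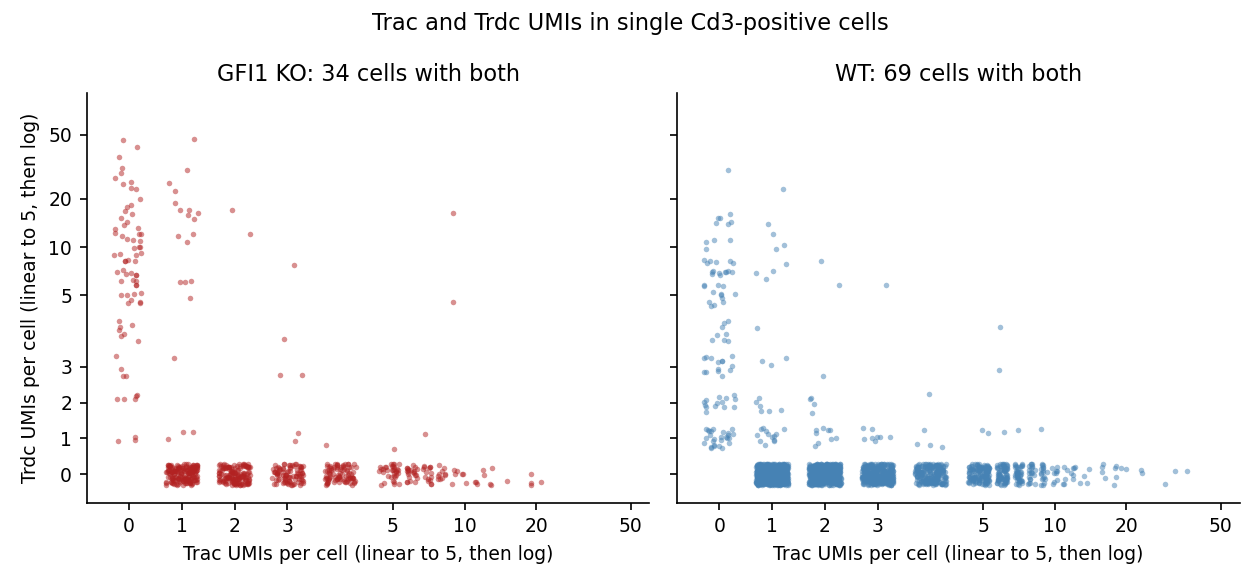
Trac UMIs (horizontal axis) against Trdc UMIs (vertical axis) per Cd3-positive cell, both axes linear to 5 and logarithmic above, with a panel for each library and points scattered slightly around whole counts. Cells with neither gene are not drawn. Cells lie along the axes, and the 34 KO-labelled and 69 WT-labelled cells with both genes sit mostly at low counts of one of them.

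Cells with Trdc and without Trac made the larger share of the Trdc-positive cells. They were 76 (8.99%) under the KO label and 102 (3.52%) in the WT-labelled library, which differ by 5.47 percentage points (3.49 to 7.70). All cells with Trdc were 110 (13.0%) and 171 (5.90%), and after thinning 10.6% and 3.5%. Only 9 and 7 of these cells lacked every αβ UMI, and Trbc RNA was present in 99 and 164 of them. With 1 Trdc UMI, Trac was seen in 8 of 11 cells under the KO label and 39 of 66 under the WT label. With 10 or more Trdc UMIs, Trac was seen in 16 of 46 (34.8%) and 5 of 16 (31.3%), and those 16 and 5 cells held 26 and 5 Trac UMIs in all.

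Surface antibody tags gave a second readout of lineage. A cell was called tag-positive with at least 30 UMIs of the CD4 or CD8a tag, the coreceptors of αβ T cells. Of cells with αβ UMIs alone, 94.8% under the KO label and 96.9% under the WT label were tag-positive. Of cells with Trdc and without Trac the shares were 10.5% (4.66% to 19.7%) and 16.7% (10.0% to 25.3%). Cells with Trac and Trdc together fell between, at 16 of 34 (47.1%; 29.8% to 64.9%) and 51 of 69 (73.9%; 61.9% to 83.7%). By RNA, cells with no Cd4, Cd8a or Cd8b1 UMI were 92.1% and 85.3% of cells with Trdc and no Trac, 55.9% and 39.1% of cells with both, and 20.4% and 22.1% of cells with αβ UMIs alone. Scrublet marked 24.6% of the WT-labelled cells with Trac and Trdc against 11.7% of WT-labelled Cd3-positive cells, and 2.94% of the KO-labelled ones against 9.47%. Their median depth was 8407 and 6836 UMIs. Without Scrublet calls the difference in share was 2.28 points (0.82 to 4.05).

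The other chains found beside Trdc separated the γ genes from the β genes. Trac was found in 30.9% of Trdc-positive and 81.0% of Trdc-negative Cd3-positive cells under the KO label, and in 40.4% and 76.6% under the WT label. Trbc was found nearly as often with Trdc as without it, in 99 of 110 cells against 98.4% under the KO label and in 95.9% against 98.2% under the WT label. A Trbc1 UMI, with or without Trbc2, was by share more frequent beside Trdc. Under the KO label it was seen in 67.3% (57.7% to 75.9%) against 58.2% (54.6% to 61.8%), with overlapping intervals. Under the WT label it was seen in 69.6% (62.1% to 76.4%) against 57.9% (56.1% to 59.8%). Any γ constant gene was found in 82.7% of Trdc-positive and 10.6% of Trdc-negative cells under the KO label, and in 55.6% and 4.55% under the WT label. Cells with 1 Trdc UMI were 11 of the 110 and 66 of the 171 Trdc-positive cells, and 3 and 12 of them held a γ gene. With 2 to 4 Trdc UMIs it was 14 of 20 and 38 of 54. With 5 to 9 it was 29 of 33 and 32 of 35, and with 10 or more 45 of 46 and 13 of 16. These cells were chosen by Trdc, so the shares describe them and were not tested.

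The 3 γ genes did not accompany Trdc alike in the libraries. Trgc1 was found in 77.3% (68.3% to 84.7%) of Trdc-positive cells under the KO label and in 32.7% (25.8% to 40.3%) under the WT label. Trgc2 was found in 28.2% and 32.2%, and Trgc4 in 55 of 110 (KO label) and 64 of 171 (WT label), with overlapping intervals. These shares also reflect Trdc counts, which were more often 1 UMI under the WT label. With 1 Trdc UMI, Trgc1 was found in 3 of 11 cells under the KO label and 6 of 66 under the WT label. With 2 to 4 it was 13 of 20 and 21 of 54, and with 5 to 9 it was 25 of 33 and 20 of 35. Of the cells with 10 or more Trdc UMIs, 44 of 46 held Trgc1 under the KO label and 9 of 16 under the WT label. Trdc-negative cells held Trgc1 in 9.25% and 2.27%.

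**Figure D3:**
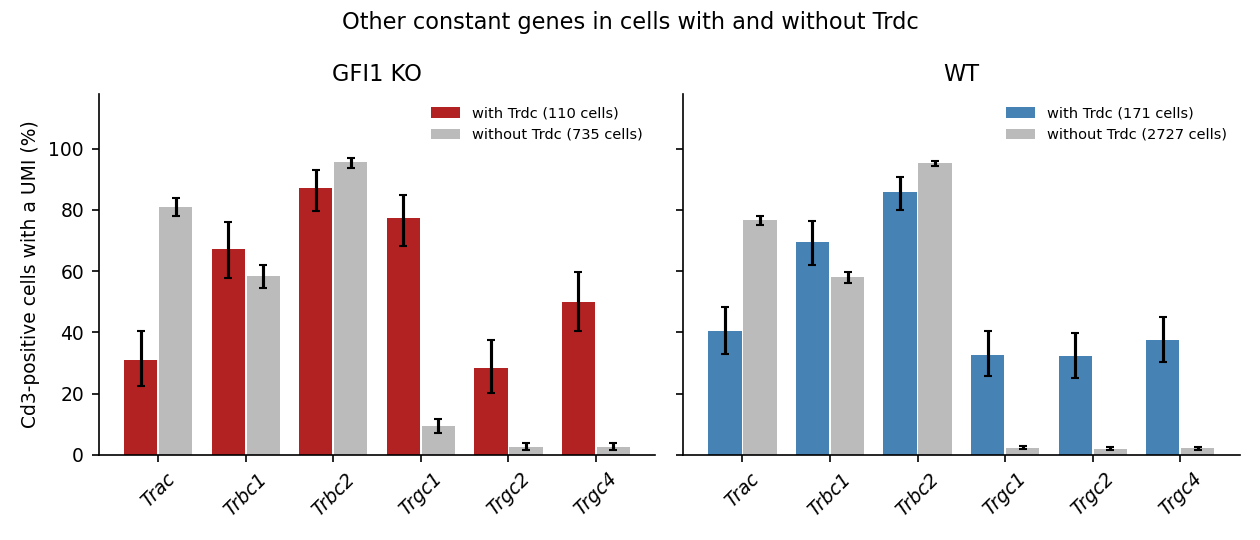
Share of Cd3-positive cells with a UMI of each other constant gene (vertical axis, percent), for cells with and without a Trdc UMI, with a panel for each library and exact binomial intervals as bars. Trgc1 reaches 77.3% of Trdc-positive cells under the KO label and 32.7% under the WT label.

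The γ constant genes were used in different proportions. Of γ constant UMIs in Trdc-positive cells, Trgc1 made 431 of 616 (70.0%) under the KO label and 140 of 392 (35.7%) in the WT-labelled library, which differ by 34.3 percentage points (28.0 to 40.2). Trgc2 made 13.1% and 29.1%, and Trgc4 16.9% and 35.2%. The WT-labelled cells thus spread their γ UMIs nearly evenly over the 3 genes. In Cd3-positive cells without a Trdc UMI the Trgc1 share was 63.7% and 31.6%, close to that with Trdc in the same library. In cells with Trac and Trdc together it was 68.5% of 162 UMIs and 27.5% of 102. Restricted to Trdc-positive cells with no αβ UMI, 9 and 7 cells with 35 and 19 γ UMIs, the difference was 18.3 points (-11.4 to 45.8) and did not exceed counting error.

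**Figure D4:**
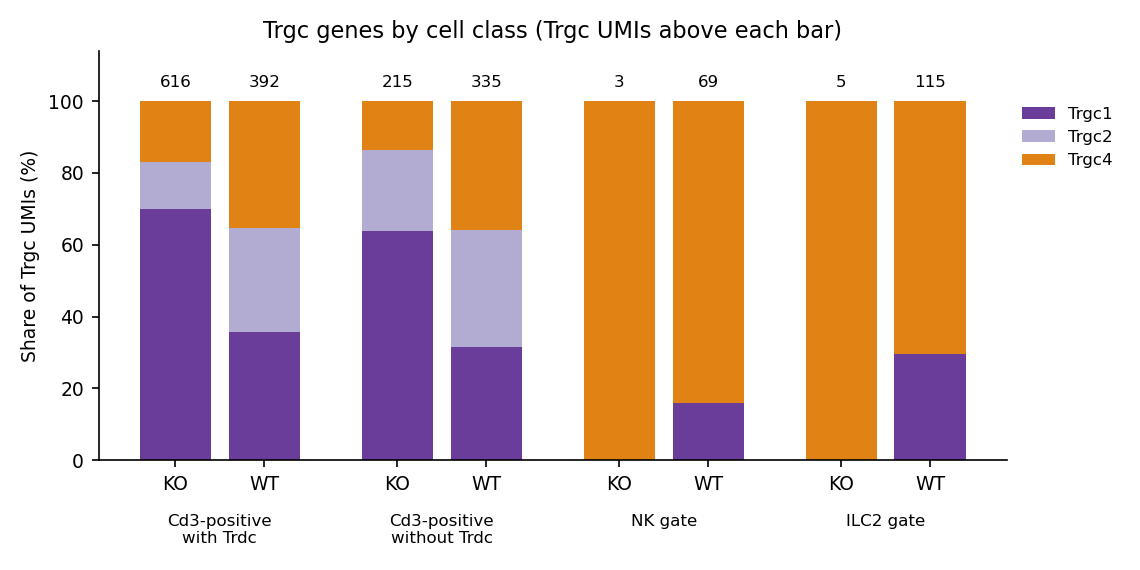
Stacked shares of Trgc1, Trgc2 and Trgc4 among γ constant UMIs (vertical axis, percent) by cell class and library, with the number of γ UMIs above each bar. Trgc1 takes 70.0% of 616 UMIs in KO-labelled cells with Trdc and 35.7% of 392 in WT-labelled ones, and the NK and ILC2 gates hold no Trgc2.

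Other genes were read in cells grouped by the γ gene they held, and most of these groups were small in one of the libraries. Trdc-positive cells with Trgc1 as the only γ gene were 26 of 110 under the KO label and 8 of 171 under the WT label. Scart1, a scavenger receptor gene of interleukin-17-producing γδ T cells, was held by 25 of the 26 and 4 of the 8, the kinase gene Blk by 23 and 5, and Il17a by 20 and 0. Trdc-positive cells with Trgc4 alone were 3 and 15. The cytotoxic granule gene Nkg7 was held by 2 of the 3 and 14 of the 15, Cd27, a costimulatory receptor gene of interferon-γ-producing γδ T cells, by 2 and 11, and Scart1 by 2 and 1. Over both libraries together, the γ gene and the library cannot be told apart in these counts. Within the WT label the 8 cells with Trgc1 alone and the 15 with Trgc4 alone can be set side by side. Scart1 was held by 4 and 1 of them, Blk by 5 and 0, Il17a by 0 and 0, Nkg7 by 3 and 14, and Cd27 by 3 and 11. These cells were few, and the difference was not tested. Cells with several γ genes were 60 and 62, and cells with none 19 and 76. Of the cells with none, 12 of 19 and 48 of 76 held Trac.

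Variable segments were caught in few of all Cd3-positive cells, and a 3′ library reads the other end of the transcript. Among Trdc-positive cells, δ segments were seen in 55 of 110 (50%) under the KO label and 20 of 171 (11.7%) under the WT label. For γ segments these were 45 (40.9%) and 54 (31.6%) cells. Trgv6 gave 46 UMIs in 35 cells under the KO label and 7 UMIs in 5 cells under the WT label. Trgv2 gave 48 UMIs in 31 cells and 105 UMIs in 72 cells, Trgv4 gave 14 and 13 UMIs, and Trgv1 gave 7 and 26 UMIs. The libraries differ in cells and UMIs, so levels read otherwise than these counts. In CPM, Trgv6 was at 9.43 and 0.41, Trgv2 at 9.84 and 6.13, Trgv4 at 2.87 and 0.76, and Trgv1 at 1.43 and 1.52. The constant gene of the known pair was present in most cells with Trgv6, Trgv4, Trgv2 or Trgv1. Trgc1 was found in 32 of 35 KO-labelled cells with Trgv6, Trgc2 in 23 of 31 and 50 of 72 cells with Trgv2, and Trgc4 in 6 of 6 and 16 of 19 cells with Trgv1. Other γ genes were often present too, as Trgc1 in 27 of the 31 KO-labelled cells with Trgv2. Trac occurred in 13 of the 35 KO-labelled cells with Trgv6 and in 10 of the 14 with Trgv4. Of those 14 cells, 1 held Trdc, whereas the 11 WT-labelled cells with Trgv4 held Trac in 2 and Trdc in 7. The 6 δ variable segments gave 155 and 50 UMIs, the 130 α segments 97 and 292, and the 35 β segments 111 and 480.

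The β constant genes were used in nearly the same proportions over all Cd3-positive cells of both libraries, and less so in some classes. Of cells with at least 5 Trbc UMIs, 670 and 2252, Trbc2 alone was found in 31.9% and 33.1%, Trbc1 alone in 1.64% and 1.73%, and both in 66.4% and 65.2%. Trbc1 made 34.7% and 36.2% of all Trbc UMIs, a difference of -1.50 points (-2.57 to -0.41). In the Cd4 class the share was 29.6% and 35.4%, a difference of -5.84 points (-8.40 to -3.22). In Trdc-positive cells Trbc1 made 34.4% of Trbc UMIs under the KO label and 47.1% in the WT-labelled library, which differ by -12.7 percentage points (-16.2 to -9.03). The 60-base windows above show that the ends of these transcripts are mostly distinct, though not entirely for Trbc2.

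**Figure D5:**
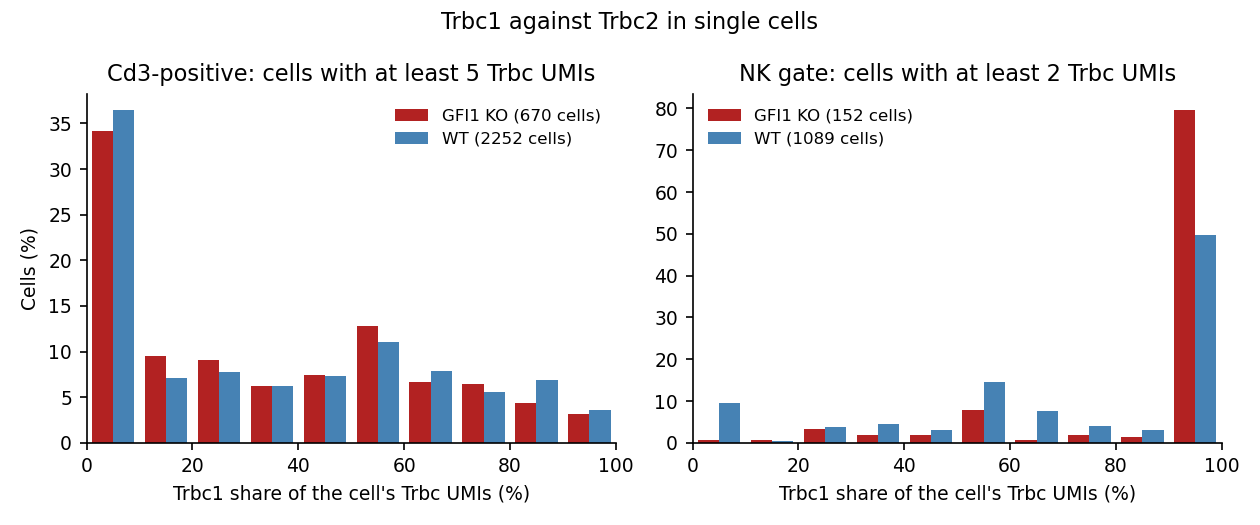
Share of cells (vertical axis, percent) by the Trbc1 share of their Trbc UMIs (horizontal axis, percent, in 10 bins), for Cd3-positive cells and for the NK gate, with both libraries. Cells with Trbc1 alone are 79.6% of judged NK cells under the KO label and 49.6% under the WT label. Among judged Cd3-positive cells they are 1.64% and 1.73%. Judged cells had at least 2 Trbc UMIs in the NK gate and at least 5 among Cd3-positive cells. The panels are therefore not directly comparable, since fewer UMIs more often show a single gene.

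Split by coreceptor RNA, the γδ genes were concentrated in double-negative cells, those with no Cd4, Cd8a or Cd8b1 UMI. These were 278 cells under the KO label and 793 under the WT label. In them Trdc reached 737 and 127 CPM, with a ratio of 5.82 (5.25 to 6.47), and Trgc1 at 348 and 48.4, a ratio of 7.18 (6.09 to 8.47). Trac stood at 299 and 303 CPM in the same cells, a ratio of 0.99 (0.89 to 1.10). In cells of the Cd8 class, 445 and 1377, Trdc was lower, at 31.6 and 11.5 CPM, with a ratio of 2.74 (2.02 to 3.72), and Trgc1 at 18.6 and 2.38, a ratio of 7.81 (4.52 to 14.0). In cells of the Cd4 class, 116 and 676, Trdc gave 1 and 27 UMIs, a ratio of 0.26 (0.01 to 1.55).

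The αβ genes behaved differently across the coreceptor classes. In the Cd4 class Trac reached 582 and 439 CPM, with a ratio of 1.32 (1.18 to 1.48), and Trbc2 had a ratio of 1.34 (1.25 to 1.43), while that of Trbc1 was 1.03 (0.93 to 1.14). In the Cd8 class the ratios were 1.22 (1.14 to 1.31) for Trac, 1.16 (1.10 to 1.22) for Trbc1 and 1.16 (1.12 to 1.21) for Trbc2. In double-negative cells Trbc1 was lower under the KO label, with a ratio of 0.91 (0.84 to 0.98). Trac levels were highest in the Cd4 class, lower in the Cd8 class and lowest in double-negative cells of either library, and Trdc ran in the reverse order. For Trac under the WT label the intervals of the last pair overlapped, 325 (312 to 338) against 303 (286 to 320) CPM.

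NK cells do not assemble a T cell receptor, yet they held constant gene RNA. The gate took cells with no Cd3 UMI and at least 2 UMIs over Ncr1, Klrb1c, Klra4, Klra8 and Klre1, 269 under the KO label and 2207 under the WT label. Of 7 NK markers, the 5 gate genes were present by choice, and the other 2, Eomes and Prf1, were detected in both libraries. Of its cells, 45.7% under the KO label and 11.9% under the WT label also held at least 2 UMIs of macrophage and monocyte markers. Trbc1 was the leading constant gene, at 363 and 334 CPM, a ratio of 1.08 (1.00 to 1.18). It was seen in 70.3% and 62.1% of NK cells. The NK cells differed in depth, with medians of 6073 UMIs under the KO label and 4395 under the WT label. Shares without thinning are therefore not at equal depth. After thinning, Trbc1 was seen in 37.9% and 37.0% of NK cells, a difference of 0.89 points (-5.38 to 7.41) within counting error. Trdc was seen in 44 of 269 (16.4%) and 369 of 2207 (16.7%) NK cells, a difference of -0.36 points (-4.88 to 4.84), and its level of 34.2 and 42.9 CPM did not differ beyond counting error, with a ratio of 0.80 (0.60 to 1.04). Both calls depended on the setting. With at least 2 Trdc UMIs the shares were 5.58% and 2.40%, higher under the KO label by 3.17 points (0.65 to 6.68), while over all gene UMIs the log2 ratio of the level was -0.42 (-0.82 to -0.03).

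Trbc2 separated the NK cells of the libraries. It gave 102 and 1481 UMIs, 56.3 and 141 CPM, a ratio of 0.40 (0.32 to 0.49), and was seen in 11.9% and 30.5% of cells. After thinning to 1500 UMIs the shares were 6.51% and 17.2%. Of NK cells with at least 2 Trbc UMIs, Trbc1 alone was found in 121 of 152 (79.6%) and 540 of 1089 (49.6%), a difference of 30.02 points (22.1 to 36.8). Trbc2 alone was found in 1 and 102 of them. Without cells holding macrophage and monocyte RNA the log2 ratio of Trbc2 was -0.84, against -1.33 with them.

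The γ genes were scarcely detected in NK cells, unlike Trdc. Trgc4 gave 3 UMIs under the KO label and 58 under the WT label, and its ratio was 0.30 (0.06 to 0.92). Trgc1 gave 0 and 11 UMIs and Trgc2 gave 0 UMIs in either library, where 3 UMIs would be 1.66 and 0.29 CPM. Of the Trdc-positive NK cells, 0 of 44 (allowing up to 6.82%) and 2 of 369 held a γ gene, against 82.7% and 55.6% of the Trdc-positive Cd3-positive cells. The 2 kinds of cell differ in Trdc counts, since 29 of the 44 and 316 of the 369 NK cells held 1 Trdc UMI. At 1 Trdc UMI a γ gene was found in 0 of 29 (allowing up to 10.3%) and 1 of 316 NK cells. Among Cd3-positive cells with 1 Trdc UMI it was found in 3 of 11 and 12 of 66. Variable segments of the δ locus were seen in 8.55% and 8.38% of NK cells, those of the β locus in 0 and 3 cells and those of the γ locus in 0 and 3 cells. Counts of 0 in the 269 KO-labelled cells allow shares of up to 1.12%. Trac was found at 17.1 and 10.1 CPM, for a ratio of 1.69 (1.10 to 2.55), and after thinning was seen in 2.30% and 1.72% of NK cells. Of 11351 genes tested in NK cells, 5.48% were at least 2-fold higher and 10.4% at least 2-fold lower under the KO label. Of the 5 constant genes with enough UMIs there, 0 were higher and 2, Trbc2 and Trgc4, were lower. For Trgc4 this rests on 3 and 58 UMIs. After thinning it was seen in 0.38% and 0.56% of NK cells, a difference of -0.17 points (-0.73 to 1.58) that did not exceed counting error.

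Group 2 innate lymphoid cells also lack a T cell receptor. They were gated by at least 3 of Gata3, Il1rl1, Rora, Icos, Il7r, Areg and Il2ra and no Cd3 UMI. The gate held 27 cells under the KO label and 218 under the WT label. At least 2 UMIs of NK markers were present in 44.4% and 43.1% of them, and of markers of group 3 innate lymphoid cells in 22.2% and 29.8%, so the label of this gate is only partly borne out. Trbc1 reached 418 and 381 CPM, for a ratio of 1.10 (0.82 to 1.45). Trbc2 was at 101 and 323 CPM, with a ratio of 0.31 (0.17 to 0.53), from 14 and 363 UMIs. Trdc was seen in 4 of 27 (14.8%) and 14 of 218 (6.42%) cells, a difference of 8.39 points (-3.00 to 27.5). A γ gene was found in 3 of 27 KO-labelled cells (11.1%) and 58 of 218 WT-labelled cells (26.6%). Trgc4 gave 5 and 81 UMIs, Trgc1 gave 0 and 34, and Trgc2 gave 0 in either library, where 3 UMIs would be 21.6 and 2.67 CPM. Cells of the NK gate were not excluded from this gate, and the levels of Trbc1 and Trbc2 above are of the whole gate. Without cells carrying NK markers, 15 and 126 cells, the values were 5 and 57 UMIs for Trgc4 and 0 and 25 for Trgc1. Trdc was then seen in 1 of 15 (6.67%) and 4 of 126 (3.17%) cells, a difference of 3.49 points (-4.56 to 28.9).

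Genes that work with the receptor were read in the same cells. Of 21 genes of T cell receptor signalling, 0 were at least 2-fold higher or lower under the KO label in Cd3-positive cells, against 2.83% and 8.92% of all genes, with a median log2 ratio of -0.13. A count of 0 among 21 is near that background. The values for the CD3 genes were ratios of 1.26 for Cd3d, 1.16 for Cd3e and 1.46 for Cd3g, which chose the cells, and of 0.91 (0.87 to 0.96) for Cd247, the ζ chain. The kinase genes Lck and Zap70 had ratios of 1.31 (1.24 to 1.39) and 1.37 (1.25 to 1.51). Trat1, encoding an adaptor that holds the receptor at the surface, had the lowest at 0.52 (0.46 to 0.57). Of 8 genes of receptor assembly and recombination, 5 had enough UMIs, and 1 was at least 2-fold lower, against 8.92% of all genes. It was Dntt, with 7 and 70 UMIs, which encodes the enzyme that adds bases at the joints. Rag1 gave 0 and 10 UMIs, Ptcra 0 and 6, and Rag2 0 in either library, where 3 UMIs would be 0.61 and 0.18 CPM.

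Genes of interleukin-17-producing γδ T cells were higher under the KO label together with Trdc and Trgc1. Of 11 listed genes in the files, 10 were at least 2-fold higher under the KO label in Cd3-positive cells, with a median log2 ratio of 2.52, against 2.83% of all genes. Scart1 had a ratio of 36.2 (31.9 to 41.3) and Il17a, the cytokine itself, one of 30.6 (25.7 to 36.6). Blk had a ratio of 5.13 (4.51 to 5.84). This list was drawn up with earlier results of these libraries known and is not independent evidence of direction. Of 8 genes of interferon-γ-producing γδ T cells, 3 were at least 2-fold higher, Ifng, Nkg7 and Ly6c2, with a median log2 ratio of 0.54. Of 6 innate-like T cell genes, 1 was, the receptor gene Cd160 at 2.07 (1.64 to 2.59).

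Set against the chains in the same cells, the first of these lists was highest where Trdc was present. Its summed level was 6706 CPM under the KO label and 1073 under the WT label in cells with Trdc and without Trac. It was 5163 and 509 in cells with both genes, and 1384 and 326 in cells with Trac and without Trdc. The interferon-γ list ran otherwise under the KO label, at 1262 CPM in cells with Trdc and without Trac and 2342 in cells with Trac and without Trdc. Under the WT label those values were 2118 and 1230. In cells with both genes the interferon-γ list stood at 2323 CPM under the KO label and 1789 under the WT label. KO-labelled cells with Trdc and no Trac held Scart1 in 84.2% and Il17a in 61.8%, against 13.7% and 4.90% of WT-labelled ones.

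Levels across 11 cell classes of both libraries, 22 points that share library and depth, gave the genes most like Trac, Trbc2, Trdc and Trgc2, the members for which this was computed. This is a description over 14449 genes. For Trac the nearest were A630014C17Rik, Cd5 and Lat, with Pearson's r of 0.97, 0.97 and 0.96. For Trbc2 they were Cd28, Lat and Cd96, with r of 0.99, 0.98 and 0.98. Trdc was most like Cd160, Adgrg5 and Cst7, with r of 0.90, 0.89 and 0.89. For Trgc2 the nearest was Trgv2 with r of 0.99, ahead of Ptprv at 0.87.

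Genes that set cells with Trac and Trdc apart from cells with Trac alone differed between the libraries. Ranked by the lower limit of the ratio, the leading genes under the KO label were Clnk, an adaptor of lymphocyte signalling, at 20.7 times (15.02 to 28.7), and Blk at 13.4 times (10.5 to 17), each seen in 17 of 34 cells. Mcc, at 16.4 times (8.68 to 31.3), Prickle1 and Cdh10 followed, with 8 to 15 cells. Under the WT label each of the 5 leading genes came from 1 to 3 of 69 cells. All 49 Mrgprg UMIs and all 29 Ccl11 UMIs lay in 1 cell each, and 1 cell held 94.0% of Smpd3 and 97.9% of Gas1 UMIs. These cells were chosen by both genes, so the ratios describe them and were not tested.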

How the data were processed

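The values used are UMI counts that the authors deposited as 1 sparse matrix per library, raw and for called cells only, covering genes and 18 antibody tags. Per the labels, Cell Ranger 9.0.1 and GRCm39 were used, and removal of doublets or free RNA is not given in the sources used here. The filters of the study's methods were applied: a cell needed 500 UMIs, 200 genes and at most 20% of mitochondrial UMIs. The 9538 ribosomal, mitochondrial and Gm- genes, with 19.0% and 16.5% of UMIs, were dropped from denominators. Mouse 1 of each genotype was analysed. The study's methods state several samples per genotype, and the others were not analysed here.

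UMIs were summed per library and cell class with Python 3.11.15, numpy 2.4.6, scipy 1.17.1 and pandas 2.3.3. Levels carry exact Poisson intervals, ratios conditional binomial intervals, shares Clopper-Pearson intervals and differences of shares square-and-add intervals, all at 95%. Ratios need 30 UMIs over both libraries for the 2-fold counts. A count of 0 is given an upper limit of 3 counts. The fold step was tested on simulated data. Doublets were kept, and removal of Scrublet calls (scanpy 1.11.5, exact neighbours, 3.41% and 5.92% of cells) was an alternative. The 30 UMIs for a tag call were taken over from an earlier analysis.

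Named were the 7 members, the CD3 genes, members of the lists, each γ variable segment, the 3 genes most like each of 4 members, and the 5 genes furthest above cells with Trac alone by the lower limit of the ratio. Members, lists and gates were chosen with earlier results of these data known. Sequences and positions come from GENCODE M21 for GRCm38, not the build of the files, matched by gene ID. Some list members are not reported here.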

Additional observations from a re-analysis of the deposited data

Results flagged for a closer look

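For 3 of the constant genes the ratio of the GFI1 KO label to the WT label lay above 1 in one cell class and below 1 in another, with both intervals clear of 1. The difference between the classes was not tested, since each group is 1 library. Trbc1 had a ratio of 1.16 in the Cd8 class and 0.906 in double-negative cells. The latter lay within counting error of 1 without Scrublet calls, at a log2 ratio of -0.04 (-0.16 to 0.07). Trbc2 had a ratio of 1.14 in Cd3-positive cells and 0.399 in NK cells. Trgc4 had a ratio of 1.81 in Cd3-positive cells and 0.299 in NK cells, the latter from 3 and 58 UMIs. The share of NK cells with Trgc4 after thinning, 0.38% and 0.56%, did not differ beyond counting error.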

How the results depend on the processing

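Each genotype is 1 library, so no replicate could be left out. No paired analysis was possible because the groups share only replicate number 1. For 16 main results, 86 of 112 alternatives stayed within the counting interval, 21 moved and 5 reversed a difference that had exceeded counting error. Differences within counting error also changed sign, those of Trdc in NK cells at 2 UMIs (3.17) and in the ILC2 gate after thinning (-2.87) or with 1 marker more (-3.33). Of 56 alternatives for the coreceptor classes, 5 moved and 51 did not. Values are differences in percentage points or log2 ratios, KO minus WT label. Alternatives for levels in NK cells, and those without B cell and macrophage RNA or without NK markers in the ILC2 gate, were chosen after seeing the data. Thinning to 1500 UMIs gave 7.54 for cells with both receptor kinds and 1.99 for Trdc without αβ UMIs. Without cells with at least 2 marker UMIs of another lineage, 7.997 was found for both kinds. The levels then gave -0.0031 for Trbc1, 0.28 for Trbc2, 1.69 for Trdc, 2.30 for Trgc1, 0.0267 for Trgc2 and 0.35 for Trgc4. Per Cd3 UMI they were -0.22 for Trac, -0.29 for Trbc1, -0.19 for Trbc2, 2.24 for Trdc, 2.64 for Trgc1, 0.66 for Trgc2 and 0.48 for Trgc4. With 1 Cd3 UMI as the gate they were 0.0794 for Trac, -0.0052 for Trbc1 and 0.10 for Trbc2. Without Scrublet calls they were 0.23 for Trbc2 and 2.76 for Trdc. Over all gene UMIs Trbc2 gave 0.13. The Trgc1 share over cells with no αβ UMI gave 18.3. In NK cells Trbc2 gave -0.84 without RNA of another lineage and -0.84 without macrophage RNA. Beyond the counts of cells and UMIs in each construction, the cause was not tested. Depth limits the rarer classes, since 9 and 7 cells had Trdc without αβ UMIs and the ILC2 gate held 27 KO-labelled cells.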

Other observations

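Other surface tags were read on the same cells, at the same 30 UMIs. The tag for CD127, the interleukin-7 receptor, was found on 35.5% of the 76 KO-labelled and 26.5% of the 102 WT-labelled cells with Trdc and without Trac, against 16.7% and 10.5% of cells with αβ UMIs alone. The tag for CD196, the chemokine receptor CCR6, was found on 5.26% and 11.8% of the former, against 1.54% and 6.65% of the latter. The γ constant gene Trgc3, not a member of the set above, gave 0 UMIs in KO-labelled and 3 UMIs in WT-labelled Cd3-positive cells.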
